A study of Mus musculus with 8 samples.

Results

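The genes described here are 44 genes of proliferation and DNA replication, chosen by name from the 55367 genes of a table of RNA-Seq counts of mouse whole kidneys. The study compared 4 c-MafΔTAM mice (labelled Maf conditional KO), which carry CAG-Cre-ER TM and floxed c-Maf alleles, with 4 c-Maf fl/fl mice (labelled Maf flox/flox), which carry the floxed alleles without Cre and are called control mice. All 8 mice were C57BL/6J, were aged 8 weeks by the labels, and were treated with tamoxifen (TAM), which activates the Cre. The study's methods give this age for the injections, and the labels do not give the time from TAM to collection. The CAG promoter is active in nearly all cell types, so deletion was not limited to the tubules, and the presence of Cre cannot be told apart from the loss of c-Maf. The comparison asks whether genes that mark dividing cells differed in the kidney after c-Maf deletion.

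Cells divide by passing through G1, S, G2 and M phases. Cyclin D1 and the E2F factors lead a cell into S phase, Cdc6 and Cdt1 load the MCM helicase on replication origins, and ribonucleotide reductase, thymidylate synthase and thymidine kinase supply the deoxynucleotides. Cdk1 with cyclins A and B starts mitosis, and the anaphase-promoting complex with Cdc20 ends it. Most tubule cells of the healthy adult kidney rest outside the cycle, and they can re-enter it after injury. Whole-kidney RNA averages over all cells, so fewer dividing cells and less RNA per dividing cell cannot be told apart.

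Counts totaled 16649129 to 22990257 per mouse, and levels are given as CPM, counts scaled to a common library size by TMM. Maf, the targeted gene, was at 9.06, 34.5, 29.6 and 10.1 CPM in c-MafΔTAM mice 1 to 4, and at 380, 342, 305 and 351 CPM in control mice 1 to 4. The groups did not overlap, and Maf fell by 4.05 on the log2 scale (SE 0.512, adjusted p = 0.0115, edgeR quasi-likelihood test), though it did not pass with the replicate block (-4.28, adjusted p = 0.0516). The tissue was checked with kidney markers, of which Lrp2 (megalin of the proximal tubule) was at 4466 to 8602 CPM and Umod (uromodulin of the thick ascending limb) at 1648 to 3196 CPM, whereas the hepatocyte genes Alb and Apoc3 stood at 0.661 to 8.85 CPM and 3.05 to 6.78 CPM. Ttr, the transthyretin gene and the third tested of 6 hepatocyte genes, was at 0.204 to 3.03 CPM in c-MafΔTAM mice and 31.5 to 67.8 CPM in control mice (log2 fold change -5.02, adjusted p = 0.0152, edgeR). Xist, the transcript that coats the inactive X chromosome of female cells, had 2 counts in c-MafΔTAM mouse 1, 6 in control mouse 3 and 22 in control mouse 4, whereas the remaining 5 mice had 17618 to 22387. The sexes were not given, so the comparison of the 44 genes was also made within these 5 mice, 3 of which were c-MafΔTAM and 2 controls. In that fit Maf itself was at -3.87 and did not pass (adjusted p = 0.108, edgeR). The mice with low Xist held 1 c-MafΔTAM mouse, and no test was run within them. Mitochondrially encoded genes took 32.3% of counts in c-MafΔTAM mouse 1 and 25.5% in control mouse 4, and 17.1% to 22.1% elsewhere.

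Proliferation genes were expressed at low levels in these kidneys. Of the 44 genes, 41 passed the filter on low counts and were tested. Ccne1 (cyclin E1, an S phase cyclin) had 5 to 18 counts per mouse, Cdc6 (an origin loading factor) had 4 to 26, and Ccnb1 (cyclin B1, the partner of Cdk1 at mitotic entry) had 2 to 10, and none of them passed. Ccnb1 counts were 4, 6, 8 and 4 in c-MafΔTAM mice 1 to 4 and 10, 10, 2 and 5 in control mice 1 to 4, which overlapped, and 26.42% of the 36-base words of its transcripts also occur in other genes, chiefly the pseudogene Ccnb1-ps. Per length of exon, the mean level over the 8 mice was under 1 RPKM (CPM per kilobase of exon) for 24 of the 41 genes, 1 to 2 RPKM for 11, and 2 to 5 RPKM for 5. Only Ccnd1, the cyclin D1 gene, stood higher, at 32.0 RPKM. The next were the replication clamp gene Pcna at 4.66 RPKM and the helicase subunit gene Mcm6 at 3.38 RPKM. The checkpoint kinase gene Bub1 was the lowest at 0.107 RPKM, with 1 to 29 counts per mouse.

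**Figure D1:**
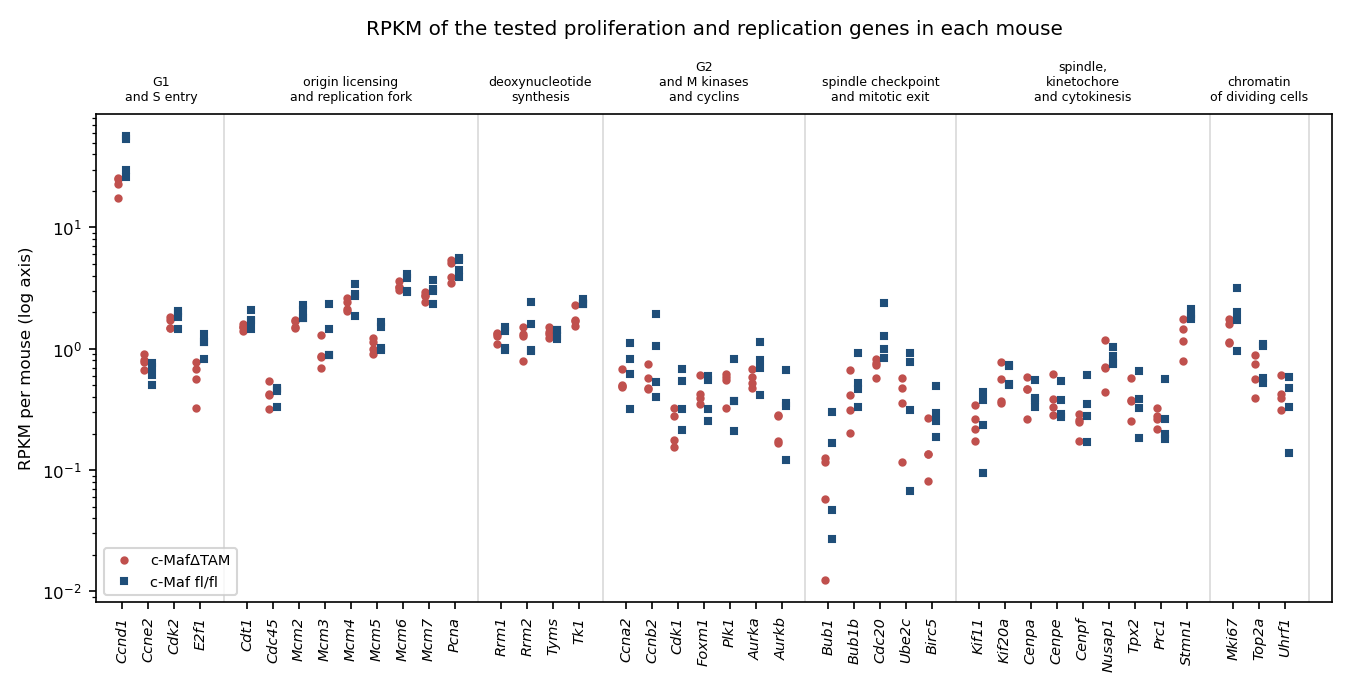
RPKM (log axis) of the 41 tested genes in each mouse, grouped by role, with circles for the 4 c-MafΔTAM mice and squares for the 4 control mice. Ccnd1 lies well above the rest, replication and nucleotide synthesis genes lie mostly at 1 to 5 RPKM, and most mitotic genes lie below 1 RPKM.

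Ordered by role on this RPKM scale, the origin and fork genes ran from Cdc45 (0.428) to Pcna (4.66), and the nucleotide synthesis genes from Rrm1 (1.24), the large subunit of ribonucleotide reductase, to Tk1 (2.11), the S phase thymidine kinase. The G2 and M kinases and cyclins were lower, from Aurkb (0.298) to Ccnb2 (0.771). The checkpoint and exit genes reached 1.05 RPKM at Cdc20, and the spindle and cytokinesis genes 1.60 RPKM at Stmn1, the gene of the microtubule protein stathmin. Mki67, whose Ki-67 protein marks cycling cells in pathology, was at 1.68 RPKM. Of the 41 genes, 36 had at least 10 counts in every mouse. The other 5 were Plk1, Aurkb, Bub1, Ube2c and Birc5, for which counting error alone is large.

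Promoters of cell cycle genes are known to carry a few shared elements. The cell cycle genes homology region (CHR), bound by the MuvB complexes that time late cell cycle genes, often lies near CCAAT boxes bound by NF-Y, and E2F sites are common in genes of G1 and S phase. RefSeq promoter windows (GRCm38.p6, 250 bases before to 50 after the annotated start, both strands searched) were on hand for 35 of the 44 genes. CHR (TTTGAA or TTCGAA) was found in 17 of the 35 (48.57%), against 19.23% of all 32851 windows. A gene counted if any of its windows held the word (Mcm7, Prc1 and Uhrf1 had several), whereas the comparison counted single windows. CCAAT was found in 27 of 35 (77.14%, against 37.41%), an E2F word (TTTGGCGC, TTTCGCGC, TTTCCCGC or TTTGCCGC) in 9 of 35 (25.71%, against 2.26%), and CHR with CCAAT in 17 of 35 (48.57%, against 7.52%). TGCTGA, a half-site of the recognition element of large Maf proteins, was found in 4 of 35 (11.43%, against 19.48%). These were Bub1, Plk1, Uhrf1 and Kif11, and full elements were not searched. These words are matches of letters and no evidence of binding.

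The 150 bases before the start are shown for 5 genes whose values in each mouse are given later, since they hold these elements in different arrangements. Mcm3 encodes a helicase subunit, Cdk1 the mitotic kinase, Ccnb2 its cyclin, Cdc20 the activator of mitotic exit and Top2a the topoisomerase that untangles sister chromatids. Capitals mark CHR words, CCAAT boxes (which read ATTGG on the other strand) and E2F words, and each sequence is written 5′ to 3′ toward its gene.
Mcm3, chr1:20820313-20820462, minus strand: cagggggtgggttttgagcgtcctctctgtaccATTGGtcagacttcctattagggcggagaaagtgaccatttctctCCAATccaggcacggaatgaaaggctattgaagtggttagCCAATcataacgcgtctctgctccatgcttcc
Cdk1, chr10:69352913-69353062, minus strand: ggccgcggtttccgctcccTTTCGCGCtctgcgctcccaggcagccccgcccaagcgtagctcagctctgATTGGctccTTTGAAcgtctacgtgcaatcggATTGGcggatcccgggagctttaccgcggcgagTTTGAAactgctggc
Ccnb2, chr9:70421555-70421704, minus strand: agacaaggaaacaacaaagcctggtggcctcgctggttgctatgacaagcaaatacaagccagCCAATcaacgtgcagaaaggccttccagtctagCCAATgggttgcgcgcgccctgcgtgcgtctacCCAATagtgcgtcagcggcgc
Cdc20, chr4:118437344-118437493, minus strand: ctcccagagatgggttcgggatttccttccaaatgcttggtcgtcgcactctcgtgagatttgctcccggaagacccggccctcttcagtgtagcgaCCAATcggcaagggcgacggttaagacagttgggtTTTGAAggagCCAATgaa
Top2a, chr11:99024190-99024339, minus strand: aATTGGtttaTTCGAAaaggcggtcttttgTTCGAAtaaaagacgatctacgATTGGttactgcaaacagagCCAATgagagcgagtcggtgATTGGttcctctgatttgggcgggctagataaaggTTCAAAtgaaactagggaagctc
Cdc20 has a CHR at -18 with CCAAT boxes at -53 and -8, and Cdk1 has CHR words at -71 and -15, CCAAT boxes at -80 and -48 and an E2F word at -131, with a further CCAAT box at -208, before the stretch shown. Top2a likewise has a CHR word at -179 and CCAAT boxes at -227 and -189 before it. In Ccnb2 the boxes at -87, -54 and -21 are evenly spaced, and its CHR words at -167 and 5 lie outside the stretch shown. Mcm3, a replication gene, has 3 CCAAT boxes and no CHR in its window, and its E2F words at 20 and 39 lie after the start, past the stretch shown.

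With all 8 mice, 0 of the 41 tested genes passed an adjusted p of 0.05 in edgeR's quasi-likelihood test, where 436 of 20149 genes (2.16%) passed. At an unadjusted p under 0.05, 8 of the 41 were lower in c-MafΔTAM mice (7.44% of all genes were) and 0 were higher (6.58% of all genes were). The 8 lower genes became 3 without control mouse 1 (7.03% of all genes), 5 without control mouse 2 (6.67%), 12 without control mouse 3 (6.32%) and 11 of 42 without control mouse 4 (6.29%). They were 5 with upper-quartile factors (5.58% of all genes) and with the replicate block (5.46%). DESeq2 called 2 of them, E2f1 (log2 fold change -0.91, adjusted p = 0.0409) and Ccnd1 (-0.87, adjusted p = 0.0142), where it called 2.81% of all genes lower, and edgeR's exact test called 0. The fitted log2 fold change was negative for 32 of the 41 genes (78.0%, and 31 with upper-quartile factors), against 49.5% of all genes, and its median was -0.29, against 0.003 for all genes. Without control mouse 1 the median was -0.14 (29 of the 41 negative), against 0.008 for all genes. For single genes, leaving out that mouse moved, among others, Cdc20 from -0.92 to -0.52, Ccnb2 from -0.81 to -0.26, Mcm3 from -0.58 to -0.22, Cenpf from -0.54 to -0.15, Mki67 from -0.48 to -0.16, Ube2c from -0.48 to -0.07 and Top2a from -0.33 to -0.15 on the log2 scale. All levels of c-MafΔTAM mice lay below all levels of control mice for 5 of the 41 genes (5.62% of all genes), namely Ccnd1, E2f1, Mcm2, Tk1 and Cdc20, and above for 0 (4.17% of all genes). These genes were measured in the same 8 mice and are not independent of each other.

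Among genes of G1 and S entry, Ccnd1 was at 82.7, 107.3, 117.7 and 119.7 CPM in c-MafΔTAM mice 1 to 4 and at 251, 267.8, 121.8 and 138.9 CPM in control mice 1 to 4. The control levels formed a high pair (mice 1 and 2) and a low pair (mice 3 and 4), and the low pair lay just above the highest c-MafΔTAM mouse. The log2 fold change was -0.87 (SE 0.277, adjusted p = 0.206, edgeR). Ccnd1 shares 23.36% of its exonic bases with the neighboring gene LTO1, and reads there were not counted. E2f1, which encodes a factor that drives S phase genes, was at 1.78, 1.03, 2.44 and 2.17 CPM against 3.58, 2.62, 3.60 and 4.16 CPM. Its groups did not overlap, and the control mice with low Xist were the highest here, unlike for Ccnd1 (log2 fold change -0.91, SE 0.272, adjusted p = 0.130, edgeR). Cdk2, the S phase kinase, had a log2 fold change of -0.16 (SE 0.142), and Ccne2, cyclin E2, of 0.29 (SE 0.212).

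All 9 tested origin and fork genes had a negative fitted value, between -0.58 and -0.02 on the log2 scale, with a median of -0.21 (Cdc45, the lowest in size, turned to 0.02 with upper-quartile factors). Mcm2, a subunit of the replicative helicase, was at 11.7, 10.5, 10.3 and 12.02 CPM in c-MafΔTAM mice and at 15.9, 14.4, 12.3 and 12.4 CPM in control mice, without overlap (log2 fold change -0.31, SE 0.125, adjusted p = 0.295, edgeR). Mcm3 was at 3.26, 3.18, 4.88 and 2.60 CPM against 8.68, 5.42, 3.35 and 3.34 CPM. The pair of control mice with high Xist was above all others, and the other pair lay within the c-MafΔTAM range (log2 fold change -0.58, SE 0.322, adjusted p = 0.463, edgeR). Pcna was at 8.29, 12.3, 9.37 and 12.99 CPM against 13, 13.4, 10.7 and 9.44 CPM, which overlapped (log2 fold change -0.12, 95% interval -0.50 to 0.26). Mcm6 (-0.09, SE 0.133) differed by less than its error, and Mcm7 (-0.16, SE 0.143) and Cdt1 (-0.21, SE 0.162) by little more than theirs. Mcm7 shares 30.29% of its 36-base words with other genes, chiefly Gm5487, and Pcna 22.09% with Pcna-ps2, so their counts are less certain.

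Of the 4 nucleotide synthesis genes, Tk1 had the largest fitted difference over all 8 mice, whereas Rrm2 had it in the mice with high Xist (-0.57 against -0.42) and with the Xist covariate (-0.46 against -0.44). Tk1 was at 8.75, 8.06, 11.8 and 8.93 CPM in c-MafΔTAM mice and at 12.2, 13.4, 12.4 and 12.1 CPM in control mice. The groups did not overlap, although c-MafΔTAM mouse 3 came close to the controls, and the 4 controls lay close together (log2 fold change -0.42, SE 0.138, adjusted p = 0.185, edgeR). Rrm2, the small subunit of ribonucleotide reductase that is made in S phase, was at -0.30 (SE 0.317), while Rrm1 (0.05, SE 0.155) and Tyms, thymidylate synthase (0.03, 95% interval -0.27 to 0.32), were near 0 on the log2 scale.

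**Figure D2:**
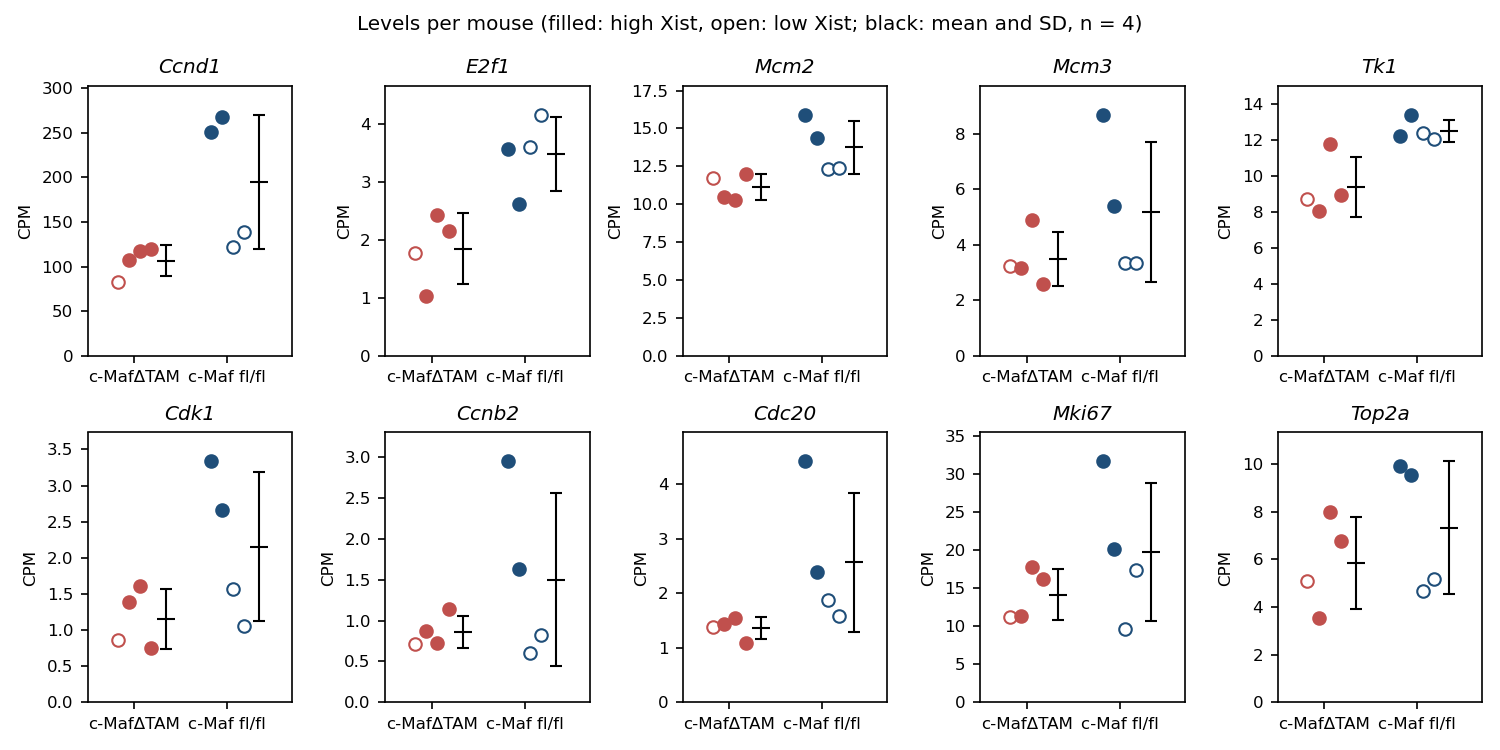
CPM (axes from 0) of 10 genes in each mouse, filled where Xist was high and open where it was low, with the mean and SD of the 4 mice of each group in black. For Ccnd1, Mcm2, Mcm3, Cdk1, Ccnb2, Cdc20, Mki67 and Top2a the 2 filled controls are the highest points of the panel, and for E2f1 and Tk1 the open controls stand with or above them.

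Among the G2 and M kinases and cyclins, Cdk1 was at 0.865, 1.39, 1.61 and 0.758 CPM in c-MafΔTAM mice and at 3.34, 2.66, 1.57 and 1.06 CPM in control mice. The control mice with high Xist were above all others and those with low Xist within the c-MafΔTAM range (log2 fold change -0.91, SE 0.384, adjusted p = 0.314, edgeR). Ccnb2 was at 0.712, 0.873, 0.721 and 1.14 CPM against 2.94, 1.63, 0.609 and 0.821 CPM, and here too the controls with high Xist were the highest, whereas control mouse 3 was the lowest of the 8 mice (-0.81, SE 0.459, adjusted p = 0.474, edgeR). The 7 tested kinases and cyclins had a median of -0.43, with Plk1, the polo kinase, at 0.22 (SE 0.410) and Foxm1, a factor that drives mitotic genes, at 0.03 (SE 0.302).

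Cdc20, whose promoter holds the CHR shown above, was at 1.37, 1.44, 1.55 and 1.08 CPM in c-MafΔTAM mice and at 4.42, 2.39, 1.88 and 1.58 CPM in control mice. The groups did not overlap, by a small margin between 1.55 and 1.58 CPM (log2 fold change -0.92, SE 0.329, adjusted p = 0.223, edgeR). Of the 36-base words of Cdc20, 20.77% also occur in other genes, chiefly Gm7856, which makes its counts less certain. Birc5, which encodes survivin, a subunit of the chromosomal passenger complex, was at 0.458, 0.462, 0.277 and 0.920 CPM against 1.67, 0.632, 0.863 and 0.997 CPM. Only c-MafΔTAM mouse 4 overlapped the controls, at 5 to 34 counts per mouse (-0.96, SE 0.436, adjusted p = 0.351, edgeR). All 5 checkpoint and exit genes had negative values, from -0.96 to -0.48, and Bub1 (-0.81, SE 0.739) and Ube2c, the ubiquitin-conjugating enzyme of mitotic exit (-0.48, SE 0.653), had the widest errors of the 41 genes. Without control mouse 2, Bub1 was at -0.07.

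Of the 9 spindle, kinetochore and cytokinesis genes, Stmn1 was at 3.41, 2.82, 2.22 and 1.52 CPM in c-MafΔTAM mice and at 4.07, 3.52, 3.70 and 3.40 CPM in control mice. The groups met at c-MafΔTAM mouse 1 and control mouse 4 (log2 fold change -0.56, SE 0.241, adjusted p = 0.327, edgeR). The remaining 8 ran from -0.54 for Cenpf, a kinetochore protein gene, to 0.13 for Cenpe, a kinetochore motor gene, and 3 of the 9 were positive (Cenpa, Cenpe and Tpx2). Kif20a overlaps Cdc23 over 29.3% of its exonic bases, and Stmn1 shares 21.42% of its 36-base words, chiefly with Gm11223.

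Mki67 was at 11.2, 11.4, 17.8 and 16.2 CPM in c-MafΔTAM mice and at 31.6, 20.2, 9.69 and 17.4 CPM in control mice. The controls spanned both the highest and the lowest level of the 8 mice (log2 fold change -0.48, 95% interval -1.26 to 0.30, adjusted p = 0.593, edgeR). Top2a was at 5.09, 3.54, 7.99 and 6.77 CPM against 9.91, 9.53, 4.67 and 5.16 CPM, which also overlapped (-0.33, 95% interval -1.01 to 0.35). Uhrf1, which maintains DNA methylation during replication, was at 0.16 (SE 0.381), and 21.53% of its 36-base words occur in other genes.

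The levels had a wider range between control mice than those of all genes, which were not matched for level. Within the control group, the highest level divided by the lowest had a median of 2.20 over the 41 genes, against 1.44 over all genes. It reached 13.7 for Ube2c, at 3 to 49 counts per control mouse. Within the c-MafΔTAM group this median was 1.71, against 1.44 over all genes. Counting error widens such ratios at low counts, and its part was not tested. Among the 41 genes, control mouse 1 held the highest level for 23 and control mouse 2 for 6, where these mice held the highest level for 13.9% and 9.72% of all genes. The lowest level lay in control mouse 3 for 10 genes and in control mouse 4 for 9 (11.3% and 15.5% of all genes). The summed level without Ccnd1 was 177, 167, 194 and 187 CPM in c-MafΔTAM mice 1 to 4, and 267, 227, 174 and 189 CPM in control mice 1 to 4. Thus the 4 c-MafΔTAM mice and the 2 controls with low Xist were alike in this sum, and the 2 controls with high Xist stood above them.

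**Figure D3:**
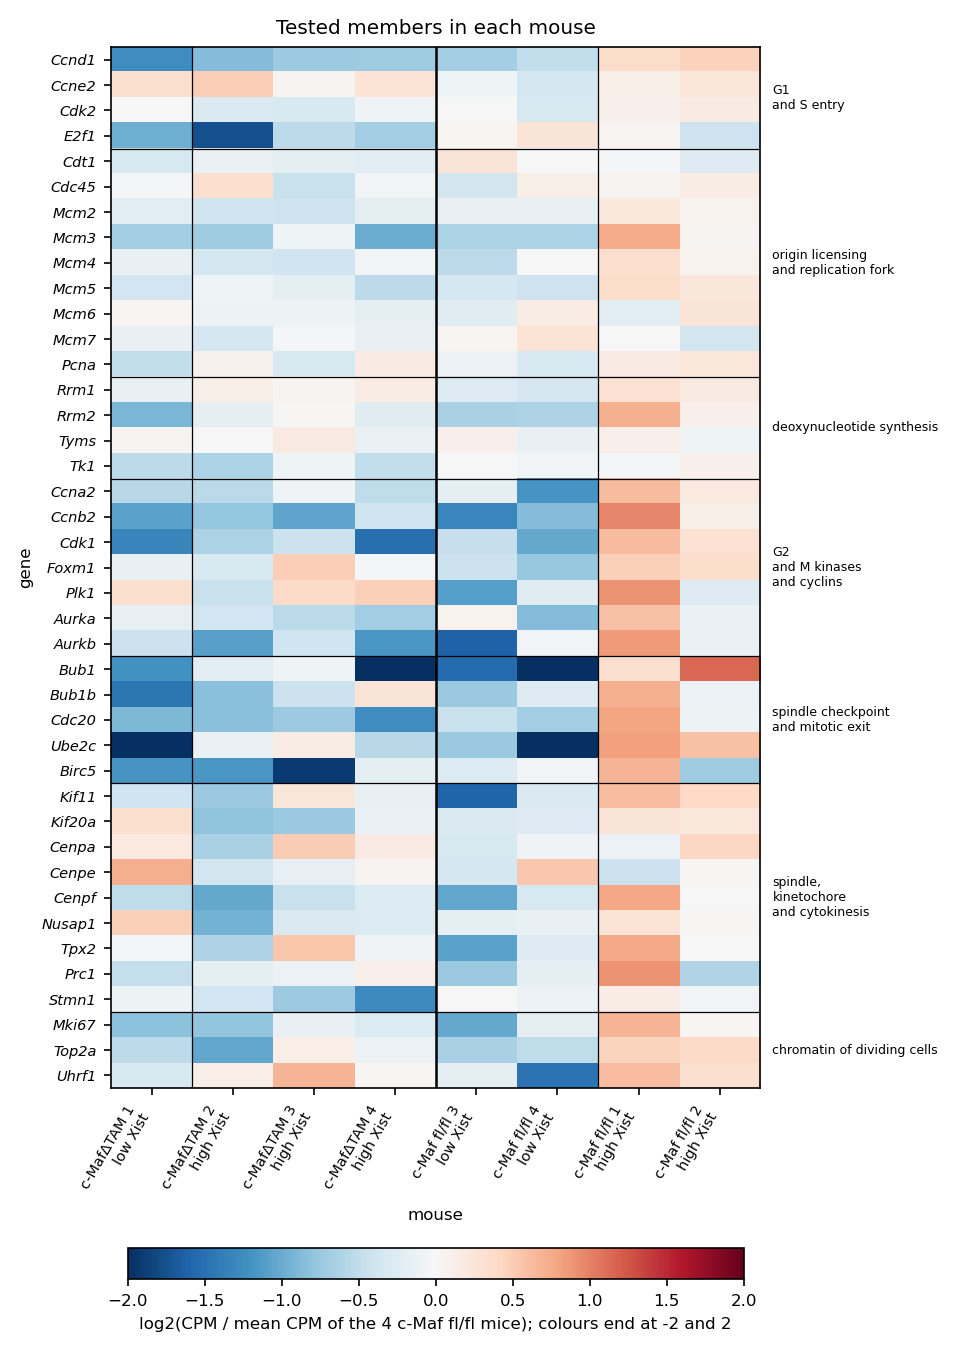
Level of each of the 41 tested genes (lines, by role) in each mouse (columns, by genotype and Xist), as log2 of CPM over the mean of the 4 control mice, with colors ending at -2 and 2. The columns of control mice 1 and 2 are mostly red (medians 0.37 and 0.10), and those of control mice 3 and 4 are mostly blue (medians -0.36 and -0.27), as are those of the c-MafΔTAM mice (medians -0.38 to -0.17).

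Among the controls, the split by Xist parts mice 1 and 2 from mice 3 and 4, so it restates the pattern above and adds no support. Both control mice with high Xist lay above both with low Xist for 26 of the 41 genes (25.3% of all genes), and below for 3, namely E2f1, Cdt1 and Mcm7 (25.4% of all genes). In the c-MafΔTAM group, all 3 mice with high Xist lay above the mouse with low Xist for 12 genes (33.0% of all genes) and below for 7 (31.3% of all genes), so such a split was not seen there. With 2 mice on each side of the split, Xist cannot be told apart from any other difference between these control mice. By role, the median log2 ratio to the control mean was 0.63 and 0.12 in control mice 1 and 2 and -0.46 and -0.87 in mice 3 and 4 for the G2 and M kinases and cyclins. It was 0.16 and 0.07 against -0.24 and -0.01 for the origin and fork genes. For the checkpoint and exit genes it was 0.72 and -0.10 against -0.74 and -0.70, so control mouse 2 was below the control mean.

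Within the 5 mice with high Xist, Ccnd1 and Cdc20 fell in c-MafΔTAM mice, and they were the only members to pass the adjusted threshold. Ccnd1 had a mean of 115 CPM in the 3 c-MafΔTAM mice and 259 CPM in the 2 controls, and fell by 1.18 on the log2 scale (SE 0.0833, adjusted p = 7.28e-07, edgeR). Cdc20 had means of 1.36 and 3.40 CPM and fell by 1.32 on the log2 scale (SE 0.337, adjusted p = 0.0428, edgeR). Of all genes in this fit, 2.22% were called lower. Of the 41 genes, 37 had a negative log2 fold change, with a median of -0.57, and 22 were lower at an unadjusted p under 0.05 (7.82% of all genes), while 0 were higher (7.29% of all genes). All 3 c-MafΔTAM mice lay below both controls for 26 of the 41 (16.6% of all genes), and above both for 0 (15.6% of all genes). Cdk1 (-1.26, adjusted p = 0.0623), Cenpf (-0.99, adjusted p = 0.0727), Mcm3 (-0.99, adjusted p = 0.0804), Ccnb2 (-1.32, adjusted p = 0.0844) and Mki67 (-0.78, adjusted p = 0.175) did not pass in edgeR's test.

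By role, the genes lower at an unadjusted p under 0.05 in the high Xist mice were 2 of 4 for G1 and S entry, 4 of 9 for origins and forks, 2 of 4 for nucleotide synthesis, 5 of 7 for G2 and M kinases and cyclins, 3 of 5 for checkpoint and exit, 4 of 9 for spindle and cytokinesis, and 2 of 3 for chromatin, where 7.82% of all genes were. Without control mouse 1, these counts were 1 each for G1 and S entry, origins and forks, kinases and cyclins, and checkpoint and exit, and 0 for the other roles (4.86% of all genes). Cenpf had means of 3.72 CPM in c-MafΔTAM mice and 7.37 CPM in controls, and Rrm2 of 3.79 and 5.62 CPM. Aurkb, the kinase of the chromosomal passenger complex, had means of 0.611 and 1.48 CPM, and Ccna2, the cyclin of S phase and G2, of 2.28 and 3.93 CPM. Tyms (8.26 and 8.23 CPM), Mcm7 (12 and 11.9 CPM) and Cdt1 (4.82 and 4.93 CPM) had nearly equal means.

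The filter of this fit let 2 further genes through, Ccne1 (-0.36, SE 0.660) and Cdc6 (-1.90, SE 0.569, adjusted p = 0.0893, edgeR), and Cdc6, with 26 and 20 counts in the controls and 4, 4 and 8 in the c-MafΔTAM mice, passed it through the controls alone. The result rested in part on 1 control mouse. Without control mouse 1, Ccnd1 still fell by 1.22 (adjusted p = 2.62e-05), Cdc20 was at -0.82 (adjusted p = 0.579), and the number of the 41 genes lower at an unadjusted p under 0.05 went from 22 to 4 (4.86% of all genes). Without control mouse 2 that number was 19 (5.67% of all genes), and 4 genes passed the adjusted threshold (edgeR, 1.05% of all genes lower), namely Ccnd1, Cdc20, Cenpf and Mki67. In both of these fits the remaining control is assumed to vary like the c-MafΔTAM mice. Without 1 of the 3 c-MafΔTAM mice, Ccnd1 fell by 1.13 to 1.21 and passed each time, whereas Cdc20 was at -1.42 to -1.18 and did not pass (adjusted p 0.0508 to 0.138, edgeR). Members called lower were 1, 2 and 5 without c-MafΔTAM mouse 2, 3 and 4 (1.51%, 1.58% and 4.13% of all genes). Among them were Mcm3 without mouse 3 (adjusted p = 0.0307), and Mcm2 (0.0376) and Ccnb2 (0.0405) without mouse 4 (edgeR).

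In the mice with low Xist, which had no test on their own, c-MafΔTAM mouse 1 lay below both controls for 13 of the 41 genes (37.6% of all genes) and above both for 11 (38.2% of all genes). Genes below both were Ccnd1, with 82.7 CPM against a control mean of 130 CPM, and E2f1, Tk1, Cdk1 and Cdc20 among others. Kif20a, a motor of cytokinesis, Nusap1, a spindle protein gene, and Plk1 were among those above both. The interaction of genotype with Xist class tested whether the genotype difference itself differed between high and low Xist mice (edgeR's quasi-likelihood test). It rests on 1 c-MafΔTAM mouse with low Xist, which is assumed to vary like the other groups. With 1 mouse there, the interaction cannot decide this question for the 41 genes. At an unadjusted p under 0.05 it was negative for 4 of the 41 (2.95% of all genes), namely Ccnd1 (-0.52, adjusted p = 0.251), Kif20a (-1.36, adjusted p = 0.413), Cenpf (-1.12, adjusted p = 0.572) and Nusap1 (-1.27, adjusted p = 0.394). In a fit over all 8 mice with a term for the level of Xist, Ccnd1 fell by 0.97 (adjusted p = 2.15e-05, edgeR) and was the only one of the 41 genes to pass, where 4.37% of all genes were called lower.

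**Figure D4:**
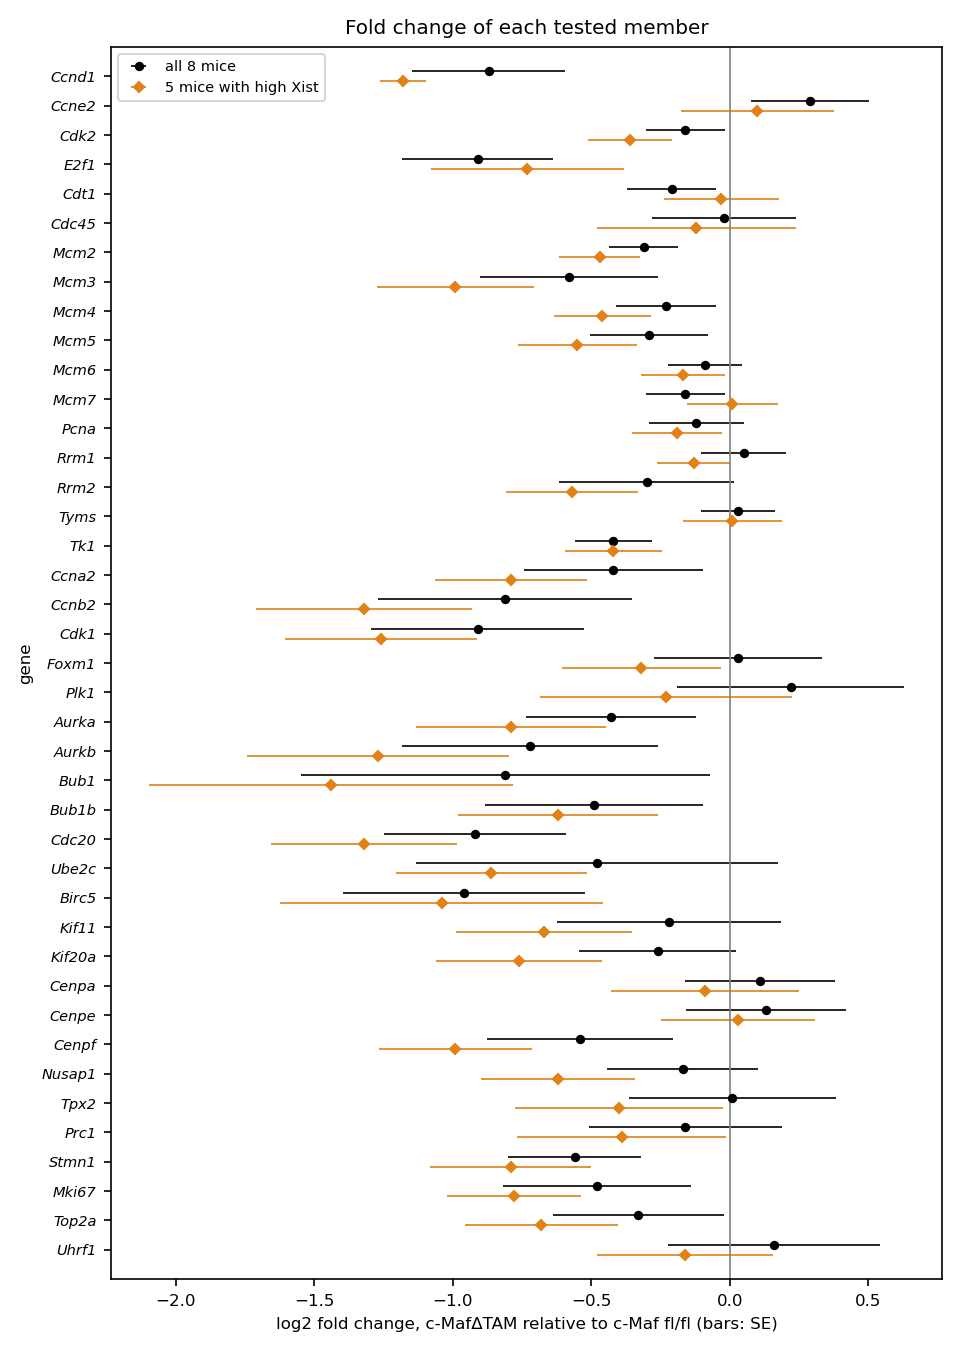
Log2 fold change of c-MafΔTAM relative to control mice with its SE for each of the 41 genes, over all 8 mice (black) and over the 5 mice with high Xist (orange). Most orange points lie to the left of the black ones, and in orange Ccnd1 (-1.18) and Cdc20 (-1.32) passed the adjusted threshold.

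Other genes of the cell cycle were read from lists of 97 genes, of which 88 were tested. In edgeR's quasi-likelihood test 0 of the 88 passed, and 4 were lower (7.44% of all genes) and 4 higher (6.58% of all genes) at an unadjusted p under 0.05, while the median log2 fold change was -0.13, against 0.003 over all genes. DESeq2 and edgeR's exact test each called 1 lower and 2 higher, where DESeq2 called 2.81% of all genes lower and 1.58% higher and the exact test 1.98% and 1.06%. Cdkn1a, which encodes the Cdk inhibitor p21, was at 12.2, 14.7, 19.4 and 28.8 CPM in c-MafΔTAM mice and at 10.9, 8.03, 6.70 and 4.22 CPM in control mice. The groups did not overlap (log2 fold change 1.32, SE 0.338, adjusted p = 0.104, edgeR). DESeq2 gave Cdkn1a an adjusted p of 0.000856, edgeR's exact test 0.00708 and the fit with the Xist covariate 0.0168, whereas in the 5 mice with high Xist it did not pass (1.15, adjusted p = 0.158, edgeR).

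Another 3 genes of these lists, chosen after their values were seen, passed in alternatives only. Cdkn2c, which encodes the Cdk4 and Cdk6 inhibitor p18, was at 6.00, 5.96, 5.43 and 6.50 CPM in c-MafΔTAM mice and at 10.9, 7.49, 9.03 and 9.74 CPM in control mice, without overlap and with both Xist classes alike (log2 fold change -0.64, SE 0.151, adjusted p = 0.0544 in the quasi-likelihood test and 0.00635 in DESeq2). In the 5 mice with high Xist it was at -0.62 (adjusted p = 0.125, edgeR). Cdkn2b, the gene of the related inhibitor p15, was at 3.21, 3.75, 2.05 and 3.03 CPM against 1.08, 0.903, 2.13 and 1.58 CPM, and control mouse 3 overlapped the c-MafΔTAM mice (1.09, SE 0.302, adjusted p = 0.103 and 0.0248). In the 5 mice with high Xist Cdkn2b rose by 1.57 (adjusted p = 0.0216, edgeR), and it did not pass without control mouse 1 (adjusted p = 0.121), control mouse 2 (0.182) or c-MafΔTAM mouse 2 (0.139). Spc25, a gene of the NDC80 kinetochore complex, was at 8.96, 13.5, 16.1 and 14.9 CPM against 24.3, 23.8, 14.2 and 14.1 CPM. Control mice 1 and 2 were the highest, the other controls lay within the c-MafΔTAM range, and Spc25 fell by 0.70 on the log2 scale in the 5 mice with high Xist (adjusted p = 0.00383, edgeR). Without control mouse 1 it was at -0.68 and did not pass (adjusted p = 0.0624, edgeR).

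Markers of other processes and cell types were summed in each mouse beside these results, and their part in the differences was not tested. The 9 tubular injury markers had 603, 885, 972 and 822 CPM in c-MafΔTAM mice 1 to 4, and 1261, 1268, 838 and 712 CPM in control mice 1 to 4, with the same 2 controls the highest, and Spp1 (osteopontin) made 57.5% to 76.3% of the sum. Without Spp1 the other 8 markers had 256, 298, 329 and 268 CPM against 299, 317, 282 and 253 CPM, which overlapped, and c-MafΔTAM mouse 3 was the highest. Of these 9 markers, Krt8 was called lower in c-MafΔTAM mice (log2 fold change -0.72, adjusted p = 0.00517, edgeR, where 1.58% of all genes were called lower) and 0 were called higher (0.586% of all genes). Fibroblast markers (5 of 5 tested, 0 called) had 366 to 543 CPM in c-MafΔTAM mice and 513, 396, 338 and 263 CPM in the controls, again with mice 1 and 2 the higher pair.

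Lymphocyte markers were low in all mice. The lymphocyte markers that passed the filter (Cd3e, Cd4, Cd8a and Cd79b, 0 called) had sums of 2.44 to 4.77 CPM against 2.11 to 3.92 CPM, and Cd3d, a defining T cell gene that did not pass, had 0 to 6 counts. Macrophage markers (9 of 9 tested, 0 called) had 118 to 128 CPM in c-MafΔTAM mice and 100 to 113 CPM in control mice, and these sums did not overlap. Erythroid markers (5 of 6 tested, 0 called) had 188 to 285 CPM against 204 to 349 CPM, and endothelial markers (7 of 7 tested, 1 called lower, against 1.58% of all genes) 430 to 512 CPM against 500 to 560 CPM. Proximal tubule markers (8 of 8 tested, 3 called lower, against the same 1.58%) had 13389 to 15003 CPM against 16583 to 20901 CPM, and here the controls with low Xist were the higher pair. Kap, a kidney gene known to be raised by androgens, was at 13730 CPM in c-MafΔTAM mouse 1 and at 8219 and 8760 CPM in control mice 3 and 4, against 1801 to 4195 CPM in the 5 mice with high Xist.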

How the data were processed

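RNA-Seq libraries of whole kidneys (rRNA-depleted, paired 36-base reads) came from 4 c-MafΔTAM and 4 c-Maf fl/fl mice, grouped by their labels, and each mouse was 1 replicate. The authors deposited whole-number read counts per gene, made with featureCounts 2.0.1 on exons of the Ensembl 102 annotation of GRCm38, without normalization. Gene lengths in bases came from the deposited table. Per its header, counting ignored strand and dropped reads that touched exons of several genes. The labels also name Subread 2.0.2 and edgeR 3.36.0, and the study's methods describe mapping to mm10 in CLC Genomics Workbench, without saying whether these counts came from that mapping. One protocol field names liver, while all samples are labelled whole kidney.

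The counts were filtered with filterByExpr, scaled by TMM and compared over all genes with edgeR's robust quasi-likelihood test (edgeR 4.0.16, R 4.3.3), with Benjamini-Hochberg adjustment over 20149 genes and a threshold of 0.05. The standard error is the absolute log2 fold change over the square root of F. The biological coefficient of variation was 0.203. The 44 genes and all lists were chosen with earlier results of these data known. Values in each mouse were given for genes past the threshold, otherwise for the 10 members with the smallest p, and for Mki67, Top2a, Pcna, Ccnd1, Ccnb1 and Cdkn1a. Xist classes were set at the midpoint of log2 levels. Other settings are in the closing section. DESeq2 1.42.0 was run without independent filtering. The fits were tested on simulated counts. Some marker genes are not reported here.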

Additional observations from a re-analysis of the deposited data

Results flagged for a closer look

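Of 82 groups of 4 mice (41 genes, both genotypes), 1 held a mouse far from the other 3 by Dixon's criterion, and chance would give about 4.1. Ccna2, the cyclin A2 gene, was at 2.77 CPM in c-MafΔTAM mouse 3, against 1.98 to 2.06 CPM in the other c-MafΔTAM mice, and the gap was 0.907 of the range.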

How the results depend on the processing

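The call of 0 proliferation genes with all 8 mice held with RLE and upper-quartile factors, without mitochondrial and ribosomal RNA genes, with edgeR's exact test, with both other filters, and without each mouse in turn. It was 2 lower with DESeq2, 1 with the Xist covariate, and 2 in the mice with high Xist, and 0 to 5 over all fits that left out 1 mouse, of which the 5 within the high Xist mice gave 1 to 5 (these and the interaction were chosen after seeing the data). Over all genes, lower calls went from 318 to 567 (DESeq2) and 880 (Xist covariate), and higher calls from 118 to 319 (DESeq2), 214 (exact test), 191 (at least 1 count in any mouse), 561 (Xist covariate) and 322 (high Xist mice). Leaving out 1 of the 8 mice gave 188 to 310 lower and 51 to 142 higher calls, and leaving out 1 of the 5 high Xist mice 232 to 847 and 121 to 741.

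Of the other cell cycle genes (88 tested, 97 with the filter of at least 1 count and 93 in the high Xist mice), lower calls were 1 with DESeq2, the exact test, the filter of at least 1 count and the high Xist mice, and 2 with the Xist covariate, and higher calls were 2 with DESeq2, the exact test and the Xist covariate and 1 with that filter and the high Xist mice. Leaving out 1 of the 8 mice gave 0 to 1 lower and 0 higher, and leaving out 1 of the 5 high Xist mice 0 to 2 in either direction. Equal replicate numbers did not pair the mice (correlations of their deviations -0.373, 0.152, -0.11 and -0.331). The replicate block left 111 lower and 18 higher calls, 0 of them proliferation genes.

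Direction was kept in all fits by 24 of the 41 genes and turned in at least 1 by 17, none of which passed the threshold in any of them. It turned with upper-quartile factors for Cdc45 (0.02), with the Xist covariate for Rrm1 (-0.03), Foxm1 (-0.05) and Tpx2 (-0.06), and in the high Xist mice for Mcm7 (0.01), Rrm1 (-0.13), Foxm1 (-0.32), Plk1 (-0.23), Cenpa (-0.09), Tpx2 (-0.40) and Uhrf1 (-0.16). Over the fits without 1 of the 8 mice or 1 of the 5 high Xist mice, the values were -0.02 to 0.38 for Ccne2, -0.29 to 0.08 for Cdt1, -0.33 to 0.09 for Cdc45, -0.39 to 0.10 for Mcm6, -0.27 to 0.20 for Mcm7, -0.19 to 0.16 for Rrm1, -0.83 to 0.04 for Rrm2, -0.08 to 0.10 for Tyms, -0.57 to 0.23 for Foxm1, -0.70 to 0.71 for Plk1, -0.92 to 0.05 for Kif11, -0.35 to 0.30 for Cenpa, -0.18 to 0.37 for Cenpe, -0.74 to 0.02 for Nusap1, -0.74 to 0.39 for Tpx2, -0.96 to 0.54 for Prc1 and -0.38 to 0.43 for Uhrf1. Without 1 of the 8 mice alone, Ccne2 (0.19 to 0.38), Cdt1 (-0.29 to -0.11) and Mcm7 (-0.27 to -0.06) did not turn. The cause was not tested. Low counts of mitotic genes and 4 mice per group limit what could be detected.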
